A study of Mus musculus with 12 samples.

Results

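The regions described here are intervals of the mouse genome that the array design treats as large intergenic noncoding RNAs (lincRNAs). Whether named genes lie within them was not checked. The members were the non-control probes whose systematic name begins with a chromosome interval or holds the word lincRNA, and they numbered 16194 of the 55681 non-control probes of the array. None of them had a RefSeq symbol, whereas 27503 of the other probes did, so each is called here by its interval on the mm9 build that the file headers name. The members covered 3543 intervals, which merged into 2226 loci where intervals overlapped, and the intervals were between 62 and 7128487 bases wide with a median of 7304. A suffix F (8171 probes) or R (8010 probes) follows the interval and is read here as the strand, while 13 probes of 3 intervals had none. Each interval and strand had a median of 3 probes (range 1 to 10), and 1067 intervals were probed on both strands. Probes of 1 interval share their target and are not independent.

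Long intergenic noncoding RNAs are transcripts that code for no known protein and lie between protein-coding genes. Many are spliced and polyadenylated like messenger RNAs, are present at lower levels, and are more restricted to particular cell types and states. In macrophages several of them are known to be induced or silenced when Toll-like receptors or the interferon gamma receptor are engaged, and some act on the transcription or stability of inflammatory messages.

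RNA came from C57BL/6 (labelled WT) peritoneal macrophages, the phagocytes of the abdominal cavity, freed of non-adherent cells by a wash 2 hours after plating and kept overnight without serum. The 3 conditions, with 4 one-colour Agilent arrays each, were compared after 20 hours: vehicle control, LPS (lipopolysaccharide of bacterial outer membranes) at 100 ng/ml with interferon gamma (IFNγ) at 20 ng/ml, and the same pair with emodin, a plant anthraquinone, at 50 µM. The control mice were 8 weeks old and labelled female (replicates 1 and 2) or male (replicates 3 and 4), and the mice of both treated groups were 9 weeks old and labelled female. The title poses classical activation, the inflammatory state that LPS and IFNγ induce, as the process that emodin may inhibit. The labels do not tie samples to single animals, so p-values measure only the spread between these samples.

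The 4 control arrays were on slide 1 and the 8 treated arrays on slide 2, so slide and scan cannot be told apart from the treatment in any comparison with the control. On slide 2 the emodin arrays filled 1 row and the LPS plus IFNγ arrays the other, so row and emodin cannot be told apart either. The 75th percentile of the processed signal was 870 ± 93.4 (SD, n = 4) in the control, 858 ± 76.4 with LPS plus IFNγ and 498 ± 46.2 with emodin. All 9 macrophage markers with a probe were tested, and their summed level (a multiple of the array's 75th percentile) was 543 to 560 in the control, 376 to 435 with LPS plus IFNγ and 456 to 546 with emodin. Taken singly, 4 were higher and 4 lower with LPS plus IFNγ than in the control. With emodin 2 were higher and 6 lower than without it (median log2 difference -0.57), and 3 higher and 5 lower than in the control (median -1.01). The design text names polymorphonuclear cells instead, and 8 of 11 neutrophil markers with a probe were tested, with summed levels of 92.5 to 111, 94.8 to 105 and 106 to 171. Of 13 mesothelial and fibroblast markers 11 were tested and summed to 17.4 to 75.3 in the control, 69.6 to 135 with LPS plus IFNγ and 10.9 to 35.6 with emodin, and no group showed Upk3b or Upk1b on each of its arrays. Of 135 tested activation genes 126 were higher and 4 lower with LPS plus IFNγ than in the control, and 23 were higher and 84 lower with emodin than without it. Replicate 3 of both treated groups went against its female label, with Xist not well above background and the Y-linked Ddx3y and Eif2s3y well above it, while control replicates 3 and 4, labelled male, had Xist and no Y-linked signal.

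Detection was counted first, because a level below background is only a bound. A probe counted as detected in a group when each of the 4 arrays showed it well above background. The control had 4505 detected members (27.8% of 16194), LPS plus IFNγ had 3620 (22.4%) and emodin had 4069 (25.1%), while 7694 members were well above background on no array. Of the other probes 53.8%, 50.6% and 50.3% were detected in the same groups. Per array, 33.0% ± 1.07 (SD, n = 4) of members were well above background in the control, 28.0% ± 1.15 with LPS plus IFNγ and 30.4% ± 2.01 with emodin. The 4 control arrays (32.0% to 34.2%) lay above the 4 LPS plus IFNγ arrays (26.7% to 29.4%), and the emodin arrays (28.1% to 32.9%) overlapped both. Fewer cells of a type and less RNA per cell cannot be told apart in these bulk samples.

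**Figure D1:**
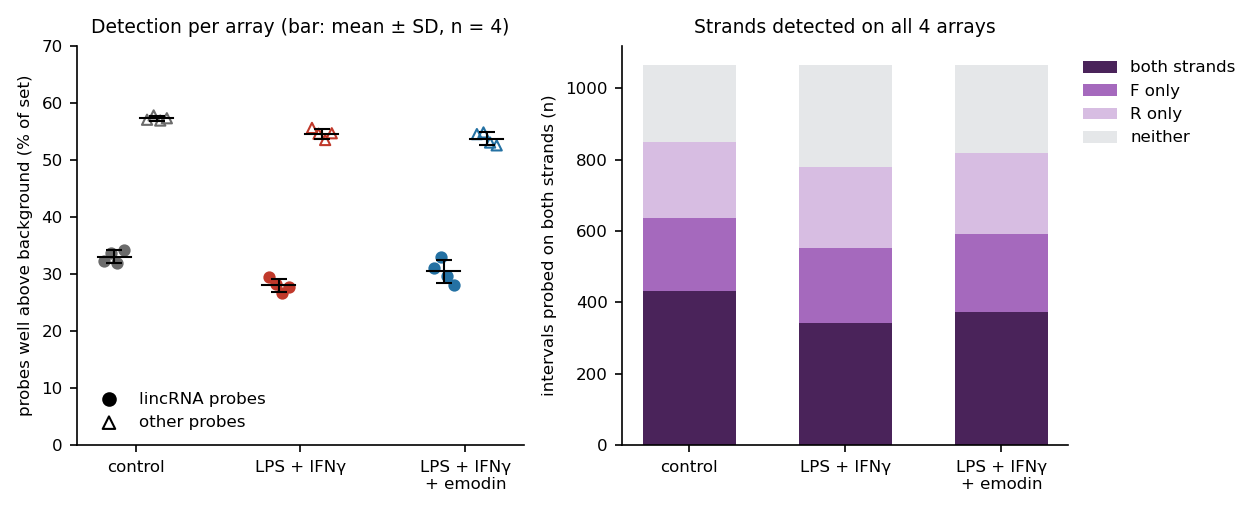
Left, share of lincRNA probes (filled circles) and of all other probes (open triangles) well above background on each array, in percent, with the mean and SD of 4 arrays per group. Right, the 1067 intervals probed on both strands, split in each group by whether a probe of both strands, of F only, of R only or of neither was well above background on all 4 arrays. The LPS plus IFNγ arrays lie below the control arrays in the left panel, and 431 control intervals against 342 with LPS plus IFNγ were detected on both strands.

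Members that went from all 4 arrays of one group to none of another were counted next. With LPS plus IFNγ 88 members (0.54% of 16194) that no control array detected were detected on all 4 arrays. In the same sense 411 (2.54%) were lost. Emodin against LPS plus IFNγ gave 244 gained (1.51%) and 51 lost (0.31%) members. Among the 39487 other probes 310 were gained (0.79%) and 737 lost (1.87%) with LPS plus IFNγ. With emodin 330 of them were gained (0.84%) and 490 lost (1.24%). Among intervals probed on both strands, 431 were detected on both strands in the control, 206 on F only, 214 on R only and 216 on neither. The corresponding counts were 342, 211, 227 and 287 with LPS plus IFNγ, and 372, 219, 229 and 247 with emodin.

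For tests, a member had to be detected on all 4 arrays of at least 1 group. That left 5008 members (30.9%) in 2070 intervals and 1446 loci, against 22347 of the other probes (56.6%), and 3220 members were detected in all 3 groups. Because a member could pass through the group where it is high, counts among the 5008 describe tested members, not all of them. The share of members tested varied little with interval width, from 27.6% for the narrowest intervals (62 to 5176 bases) to 33.7% for the next group (5201 to 13076 bases), and 30.3% for the widest (30301 bases and more). It was 29.9% for F probes and 32.0% for R probes. By chromosome it ran from 22.1% on chromosome 9 to 40.2% on chromosome 17, where 363 of 904 members were tested.

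Levels below are log2 processed signal minus the 75th percentile of the array, so 0 stands for that percentile, and a difference of 1 is a doubling. A difference was called at a limma adjusted p under 0.05 over all 27355 tested probes. LPS plus IFNγ raised 1100 tested members and lowered 1971. Over all tested probes 65.7% were called, 29.1% higher and 36.5% lower, against 22.0% and 39.4% of members and 30.7% and 35.9% of other probes. The median difference of members was -0.22, and that of all tested probes -0.10. At 2-fold or more 528 of the 5008 tested members were higher and 618 lower. Over all tested probes 12.9% were higher and 11.9% lower at that size. Members thus had a smaller share of such rises and a slightly larger share of such falls. The 4 and 4 arrays did not overlap for 991 higher and 1764 lower members. Over all tested probes they did not overlap for 27.3% higher and 33.4% lower, again a larger share of rises than among members. Among the 3402 members detected on all 8 arrays 792 were higher (23.3%) and 1355 lower (39.8%), against 31.4% and 35.3% of 19300 other probes.

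With the 75th percentile taken over probes detected on all arrays, the median of all tested probes was -0.21 here and -0.08 between emodin and control, where it was 0.12 in the main setting. Dim signals differed between the slides. Members that were detected nowhere had a median difference of 0.47 between LPS plus IFNγ and control, and of -0.01 between emodin and LPS plus IFNγ. Without replicate 3 of both treated groups the counts for LPS plus IFNγ were 1034 higher and 1902 lower, and against the controls labelled female alone they were 1043 and 1632.

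**Figure D2:**
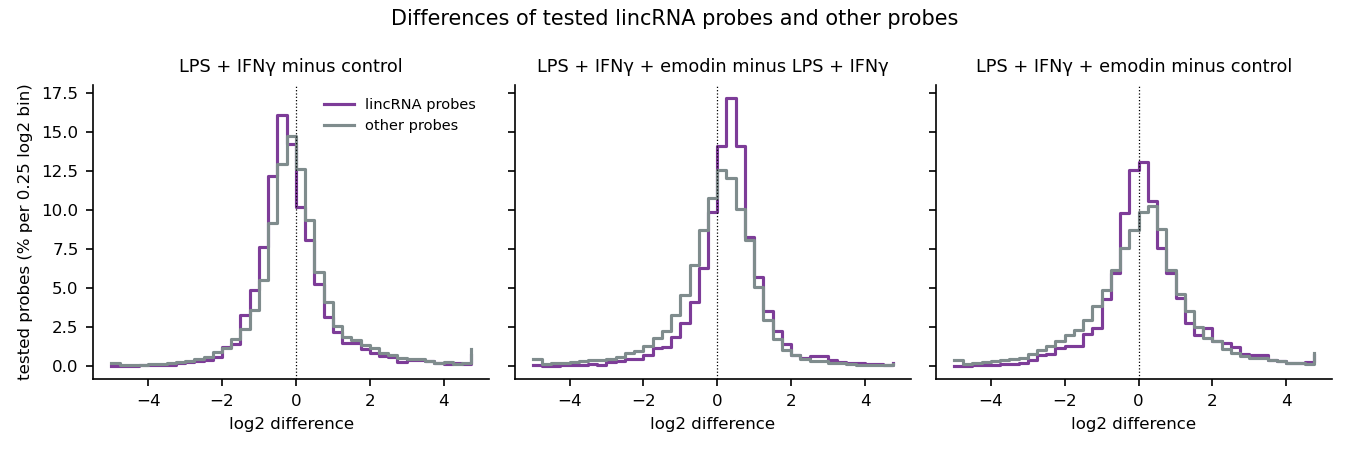
Distribution of log2 differences over the 5008 tested lincRNA probes and the 22347 other tested probes in each comparison, as percent of tested probes per bin of 0.25, with values past the axis gathered in the outer bins. The lincRNA distribution lies left of the other probes in the first panel (medians -0.22 against -0.07) and right of them in the second (0.34 against 0.12).

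Sizes of differences depend on the background correction. With normexp in place of the processed signal, 146 of the 165 differences of the 55 probes with values of their own below were smaller in size and 74 changed by over 1.5-fold, while 134 were called with the same sign and 11 lost their call. The largest changes were of chr17:64063362-64066067 R (6.96 to 3.71) and chr17:84397891-84412748 F (8.59 to 5.48), both LPS plus IFNγ against control.

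A locus on chromosome 16, at 84702353 to 84710928, held the largest of the named rises. It holds 4 intervals and 13 probes, of which 11 were tested; 10 of these rose with LPS plus IFNγ. On the control arrays 7 of the 10 were nowhere well above background, so their rises, of at least 12.9-fold to at least 327-fold, are bounds. The F probe of chr16:84708695-84708806 was well above background on no control array, with levels of -5.28, -6.26, -5.59 and -5.41. It read 3.53, 3.63, 3.68 and 3.56 with LPS plus IFNγ and 1.49, 1.21, 1.58 and 0.55 with emodin. The 3 groups did not overlap, and emodin lay between the other two. The rise was 9.24 ± 0.24 (SE; adjusted p = 3.49e-11), a difference of at least 327-fold. Here and below "at least" marks a bound, for which each dimmer array entered at the weakest signal that passed the background test there, or at the reading of the probe if that was higher. The difference of emodin from LPS plus IFNγ was -2.39 ± 0.24 (adjusted p = 3.07e-06).

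Both strands of that locus moved. All 7 F probes rose, and so did 3 of 4 tested R probes, one of them by at least 249-fold. An R probe of the enclosing interval chr16:84702353-84710928 was detected in every group, with -4.27, -4.50, -4.27 and -3.77 in the control, 2.69, 2.84, 2.96 and 2.69 with LPS plus IFNγ, and 0.60, 0.41, 0.59 and 0.09 with emodin. Its control level was thus measured, not bounded, and it rose by 7.0 ± 0.16 (adjusted p = 1.17e-11). In chr16:84707202-84707748 the F probe was called higher as well (adjusted p = 1.2e-05), but of the control arrays only replicate 2 showed it well above background, at -2.84 against -6.73 to -6.52 on the others. Without that array the rise was at least 33.9-fold. All 11 tested probes were lower with emodin than with LPS plus IFNγ, by 1.03 to 2.63 on the log2 scale, and 10 stayed called above the control.

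Close loci on chromosome 17 rose together and then parted with emodin. At chr17:84397891-84412748 the F probe read -6.53, -6.39, -6.41 and -6.56 in the control, well above background on no array, then 1.95, 2.21, 2.20 and 2.13 with LPS plus IFNγ, and -1.29, -1.82, -1.63 and -2.17 with emodin. The groups did not overlap. It rose by 8.59 ± 0.15 (adjusted p = 1.87e-12; at least 117-fold) and with emodin it fell by 3.85 ± 0.15 (adjusted p = 2.53e-09). Both other probes of the interval did likewise. One was at least 31.1-fold higher with LPS plus IFNγ than in the control, and emodin differed from LPS plus IFNγ by -3.48. The other was at least 70.4-fold higher, with an emodin difference of -3.91.

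The neighbouring locus, at 84470764 to 84489215 of chromosome 17, rose with LPS plus IFNγ and rose further with emodin. Its R probe of chr17:84470764-84486339 read -2.41, -2.09, -2.13 and -1.77 in the control, 1.48, 1.60, 1.77 and 1.53 with LPS plus IFNγ, and 4.11, 4.67, 4.89 and 4.07 with emodin. The 3 groups formed 3 separate steps, 3.69 ± 0.19 (adjusted p = 8.73e-09) and then 2.84 ± 0.19 (adjusted p = 1.2e-07). All 5 R probes of the locus rose with LPS plus IFNγ, 2 of them from no control array well above background (one of them at least 37.9-fold higher), and then by 2.69 to 2.84 with emodin. Of 5 tested F probes 3 were called higher and 1 lower with LPS plus IFNγ, and 4 rose with emodin. The call of 1 of those 3 compares readings that no control or LPS plus IFNγ array showed well above background. The F probe of chr17:84477999-84489215 rose by 2.14 ± 0.11 and then by 3.29 ± 0.11 (adjusted p = 1.32e-08 and 1.13e-09).

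Other regions that rose most were on chromosomes 17 and 7. The R probe of chr17:64063362-64066067 was well above background on no control array (-6.95, -7.08, -6.83 and -7.05), read 0.33, -0.07, -0.07 and -0.27 with LPS plus IFNγ, and -3.31, -3.86, -3.88 and -3.61 with emodin. It was at least 26.5-fold higher with LPS plus IFNγ, and emodin took it down by a difference of -3.64 ± 0.15 (adjusted p = 3.08e-09), without overlap. The R probe of chr7:111530578-111539097 read -2.46, -2.29, -2.14 and -2.51, then 3.36, 3.58, 4.00 and 3.52, and with emodin 3.14, 2.26, 2.32 and 2.95. It rose by 5.96 ± 0.21 (adjusted p = 3.72e-10) and was lower by a difference of -0.95 ± 0.21 with emodin (adjusted p = 0.00141). Of its other probes one rose by 5.93 and one, well above background on no control array, by at least 282-fold, and they differed by -0.76 and -0.90 with emodin.

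The regions that fell most with LPS plus IFNγ were smaller in size of change. Regions are ranked here by the brightest called probe of each interval, and other probes of an interval could differ more or less. In chr3:30754871-30776438 the F probe read -2.49, -2.60, -1.84 and -2.60 in the control, was well above background on no LPS plus IFNγ array (-5.53, -5.80, -6.04 and -5.58), and read -3.19, -3.36, -3.60 and -3.31 with emodin. It was at least 3.54-fold lower (difference -3.35 ± 0.18, adjusted p = 1.13e-08) and emodin raised it by at least 1.79-fold (2.37 ± 0.18, adjusted p = 2.97e-07). Emodin arrays stayed below every control array. In chr17:71183978-71185384 the F probe read 1.79, 2.03, 1.62 and 1.51, then -1.70, -0.14, -2.33 and -1.85, and with emodin -0.01, -0.06, -0.30 and -0.01. It fell by 3.25 ± 0.36 (adjusted p = 7.76e-06), and its other probes fell further, at -3.87 and -3.67. LPS plus IFNγ replicate 2 lay within the emodin range, so those groups overlapped although the difference of 1.41 ± 0.36 was called (adjusted p = 0.00404). With the spike-in scaling described below it was 0.72 and not called.

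A pair of F intervals on chromosome 1 fell together. At chr1:139795171-139796306 the control arrays read -2.84, -3.03, -3.27 and -2.52, and no treated array was well above background, which made LPS plus IFNγ at least 2.45-fold and emodin at least 2.51-fold lower. At chr1:139822286-139822985 the levels were -1.64, -1.90, -1.96 and -1.50 in the control, -4.49, -4.09, -4.84 and -5.77 with LPS plus IFNγ, and -4.10, -3.75, -3.23 and -4.74 with emodin. Control lay above both treated groups, which overlapped each other (0.84 ± 0.36, adjusted p = 0.053), with 1 LPS plus IFNγ array and 2 emodin arrays well above background. Under 7 alternatives, the replicate block among them, that difference was called. Also named by this rule were chr11:112898724-113062945 on R, at -3.00 ± 0.17 with 2 LPS plus IFNγ arrays well above background, and chr2:71575871-71583454 on R, at least 4.15-fold lower. Of 7 other tested probes of the chromosome 11 interval 3 were called lower and 0 higher, with differences of -3.23 to 0.28. The other tested probe of the chromosome 2 interval differed by -0.82 and was at least 1.15-fold lower. The chromosome 11 region differed by 0.81 ± 0.17 with emodin (adjusted p = 0.00119), and by 0.12 with the spike-in scaling, where it was not called. For the chromosome 2 region no call was made with emodin.

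Emodin given with LPS plus IFNγ, set against LPS plus IFNγ alone, raised 2384 tested members and lowered 759. Over all tested probes 69.9% were called, 41.9% higher and 27.9% lower, against 47.6% and 15.2% of members and 40.7% and 30.8% of other probes. The median difference was 0.34 for members and 0.17 for all tested probes. At 2-fold or more 832 were higher and 314 lower (16.6% and 6.27% of tested members, against 13.8% and 12% of all tested probes). The arrays did not overlap for 2005 higher and 655 lower members, together 53.1% of tested members. Over all tested probes that share was 64.5%, with 38.5% higher and 26.0% lower. Among the 3377 members detected on all 8 arrays 1668 were higher (49.4%) and 528 lower (15.6%), against 42.7% and 29.6% of 18808 other probes. Without replicate 3 of both groups the counts over all tested members were 2130 and 687. Of the 8 tested neutrophil markers 6 were called higher and 2 lower with emodin than without it (median difference 1.23), and their part in these counts was not tested.

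The direction of these counts rests on the scaling. With 6 spike-in probes, RNAs added in fixed amounts, as the reference in place of the 75th percentile, each difference shifted by the same -0.69 on the log2 scale, and 600 members were higher and 2210 lower. The medians became -0.35 for members and -0.52 for all tested probes. The share of called members that were higher was 75.9% with the 75th percentile and 21.4% with the spike-ins. Rises smaller than that shift turn with it. The spike-in signal itself differed between the slides, by 2.59 on the log2 scale between LPS plus IFNγ and control and by 2.50 between emodin and control, so it served as a reference only within slide 2.

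The largest of the named rises with emodin was at chr1:134245856-134246607 on F. It read -4.86, -3.80, -4.02 and -3.68 in the control, was well above background on no LPS plus IFNγ array (-4.28, -5.49, -5.26 and -4.54), and read 2.41, 2.25, 2.53 and 2.31 with emodin. Emodin stood apart from both other groups, by at least 95.8-fold over LPS plus IFNγ (7.27 ± 0.29, adjusted p = 2.76e-09). The F probe of chr17:6426800-6528950 was similar, at -3.00, -3.18, -2.89 and -2.71 in the control, -3.28, -3.21, -3.01 and -3.20 with LPS plus IFNγ, and 4.09, 4.07, 4.12 and 3.88 with emodin. Control and LPS plus IFNγ overlapped (-0.23 ± 0.11, adjusted p = 0.0767), and emodin was 7.21 ± 0.11 above LPS plus IFNγ (adjusted p = 5.54e-12). The single other tested probe of that wide interval differed by -0.06, which was not called, so the rise was seen by 1 of its 2 tested probes.

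More narrow responses to emodin followed. The R probe of chr9:55925993-55926583 read -6.80, -6.19, -5.97 and -6.78 in the control, -5.46, -4.96, -5.51 and -2.80 with LPS plus IFNγ, and 0.99, 1.00, 1.08 and 0.99 with emodin. The rise over LPS plus IFNγ was called (adjusted p = 9.5e-07), but of those arrays only replicate 4 showed the probe well above background. Without that array the rise was at least 37.4-fold, and over the control it was at least 54.5-fold. The R probe of chr15:68172597-68194740 read -3.28, -3.53, -3.61 and -3.54, then -2.90, -3.01, -2.52 and -3.07, and with emodin 1.74, 1.99, 2.16 and 1.47. Emodin raised it by 4.71 ± 0.16 (adjusted p = 8.95e-10) and its other probes by at least 7.36-fold and at least 32.1-fold. In chr11:51854060-51903278 the F probe differed by 4.01 ± 0.12 (adjusted p = 5.3e-10), with 1 LPS plus IFNγ array well above background, and one of its other probes rose by at least 8.07-fold. Between LPS plus IFNγ and control no call was made. In chr13:52068582-52071952 the F probe was at least 4.68-fold higher with emodin than with LPS plus IFNγ, but its control arrays, of which 1 was well above background, ran from -7.06 to -1.75 and the other tested probe of the interval differed by 0.31, not called.

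**Figure D3:**
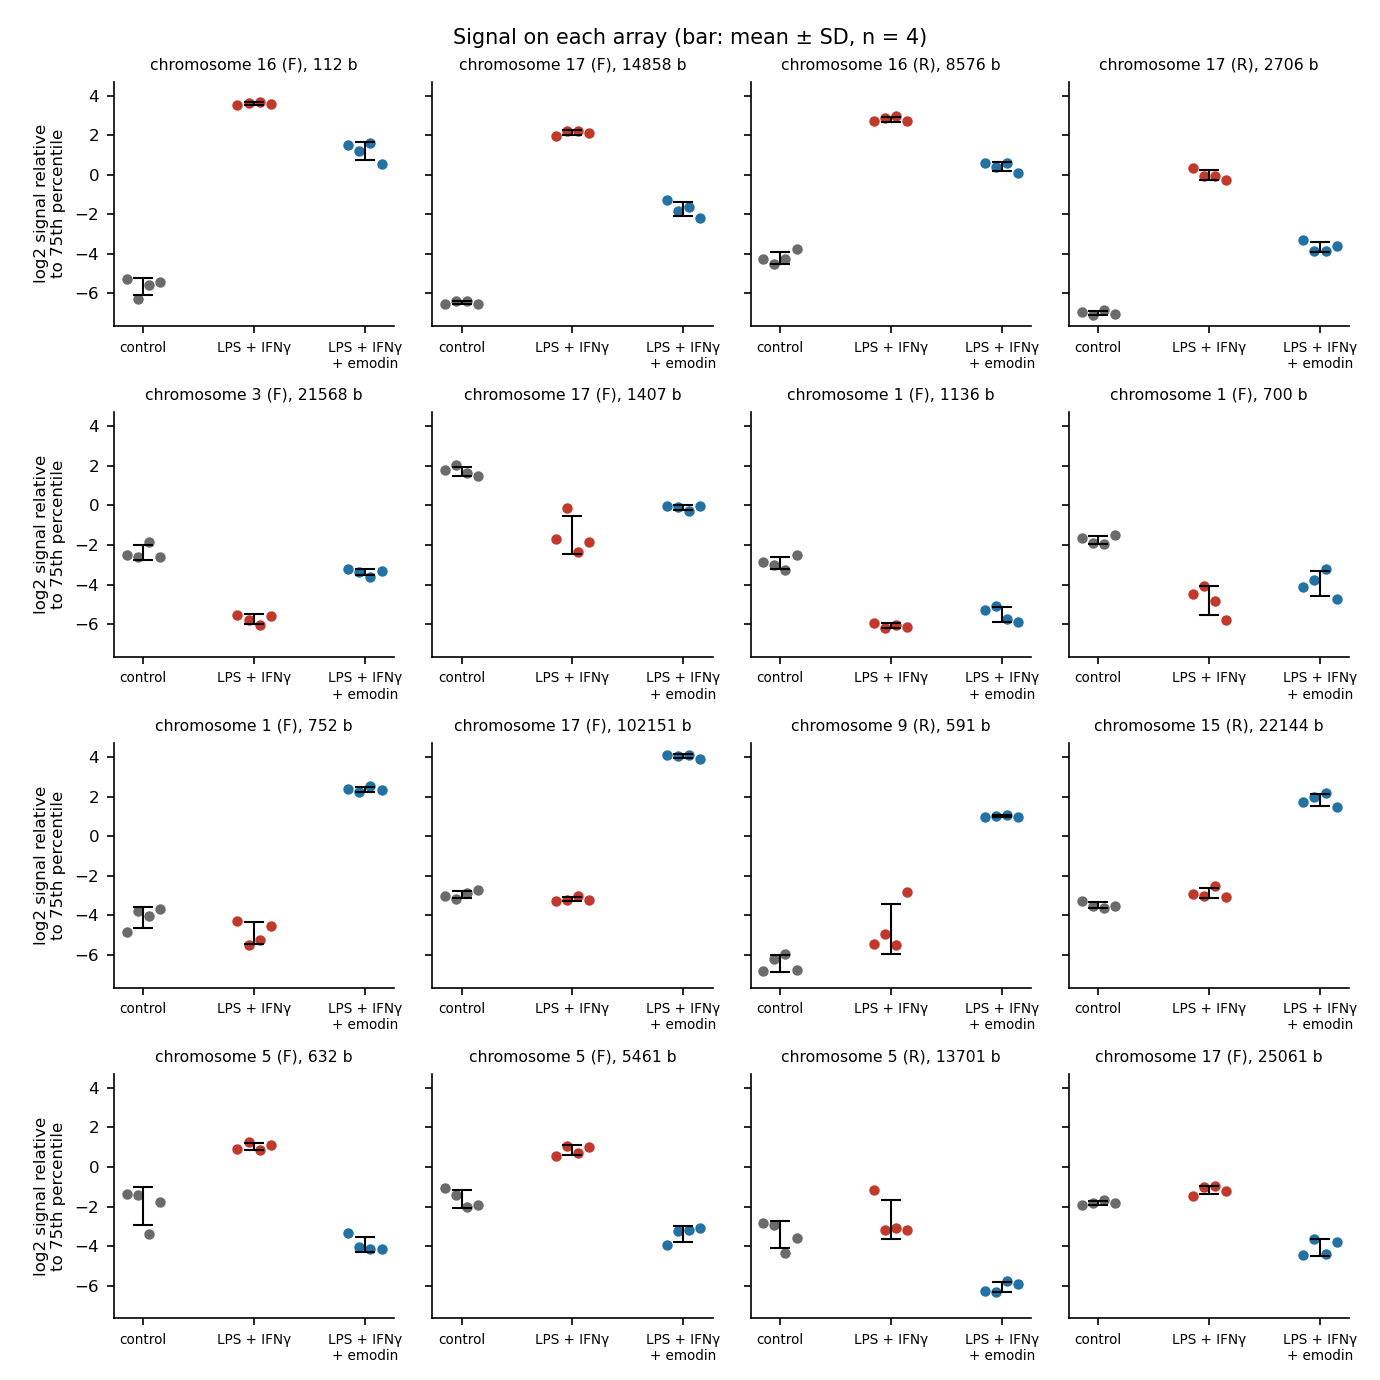
Level of 16 named lincRNA probes on each of 4 arrays per group (log2 processed signal minus the 75th percentile of the array), with points for arrays and bars for the group mean and SD. Each panel gives the chromosome, strand and width of the interval. The top row rises with LPS plus IFNγ, the second falls, the third rises with emodin and the bottom row falls with emodin.

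A locus at 97505439 to 97522274 of chromosome 11, chosen after its values were seen, responded to emodin on both strands. Of its 20 probes 15 were tested. With LPS plus IFNγ 5 were lower than the control and none higher, and the call of the F probe given below (-0.43, adjusted p = 0.0498) was lost under 17 alternatives. With emodin 14 were higher than with LPS plus IFNγ, and the 15 differences ran from 0.38 to 4.91 with a median of 3.55. An R probe read -4.72, -4.51, -4.96 and -4.18 in the control, -4.09, -4.60, -4.23 and -4.44 with LPS plus IFNγ, and 0.49, 0.68, 0.81 and 0.31 with emodin, which was at least 26.6-fold higher (4.91 ± 0.17, adjusted p = 1.19e-09). An F probe read -3.21, -3.29, -3.33 and -2.91, then -3.11, -3.69, -3.93 and -3.74, and with emodin 0.72, 0.99, 1.20 and 0.68. Emodin arrays lay above all 8 others for both probes. Rises of the locus smaller than the spike-in shift turn with that scaling.

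The largest falls with emodin were on chromosome 5. In chr5:31883451-31884082 the F probe read -1.39, -1.40, -3.38 and -1.75 in the control, 0.90, 1.28, 0.87 and 1.12 with LPS plus IFNγ, and -3.36, -4.07, -4.16 and -4.16 with emodin. LPS plus IFNγ stood above both other groups, which overlapped through control replicate 3. It rose by 3.02 ± 0.38 (adjusted p = 2.26e-05), and with emodin, where 1 array was well above background, it differed by -4.98 ± 0.38 (adjusted p = 3.59e-07). In chr5:123582742-123588202 the F probe read -1.06, -1.41, -2.04 and -1.90, then 0.58, 1.08, 0.72 and 1.03, and with emodin -3.97, -3.22, -3.20 and -3.11. The groups did not overlap, with 2.45 ± 0.24 and then -4.23 ± 0.24 (adjusted p = 2.65e-06 and 3.57e-08). None of its 6 other tested probes was called lower with emodin. In chr5:53931541-53945241 the R probe was at least 3.00-fold lower with emodin, but the other tested probe of the interval differed by 0.43, which was not called. LPS plus IFNγ replicate 1 read -1.16 for that R probe, against -3.21 to -3.07 on the others. Its difference went from -3.41 to -0.87 with normexp. In chr17:95149413-95174473 the F probe differed by -2.90 ± 0.18 (adjusted p = 8.44e-08), with 2 emodin arrays well above background. The summed mesothelial and fibroblast markers given above were also highest with LPS plus IFNγ and lowest with emodin, with 6 of 11 called lower with emodin than without it. Of 5 tested lymphocyte markers 3 were lower and 2 higher (median -2.28), with summed levels of 11.3 to 12.5 in the control, 7.84 to 9.52 with LPS plus IFNγ and 11.8 to 12.5 with emodin. The part of either list in these falls was not tested.

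Probes of the chromosome 5 locus at 31856417 to 31916414 did not move as one. Of 23 probes 13 were tested, and with LPS plus IFNγ 2 rose and 7 fell, with differences from -3.62 to 3.18. The F probe of chr5:31856417-31916414 read -1.41, -1.59, -2.68 and -1.95, then 1.22, 1.31, 1.14 and 1.42, and with emodin -3.94, -3.20, -3.52 and -3.29. It rose by 3.18 ± 0.25 and then differed by -4.76 ± 0.25 (adjusted p = 3.21e-07 and 1.74e-08). The F probe of the nearly identical interval chr5:31856417-31916317 instead read -1.42, -1.22, -0.84 and -1.27 in the control and was well above background on no treated array, which made it at least 7.72-fold lower with LPS plus IFNγ and at least 8.30-fold lower with emodin than in the control.

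**Figure D4:**
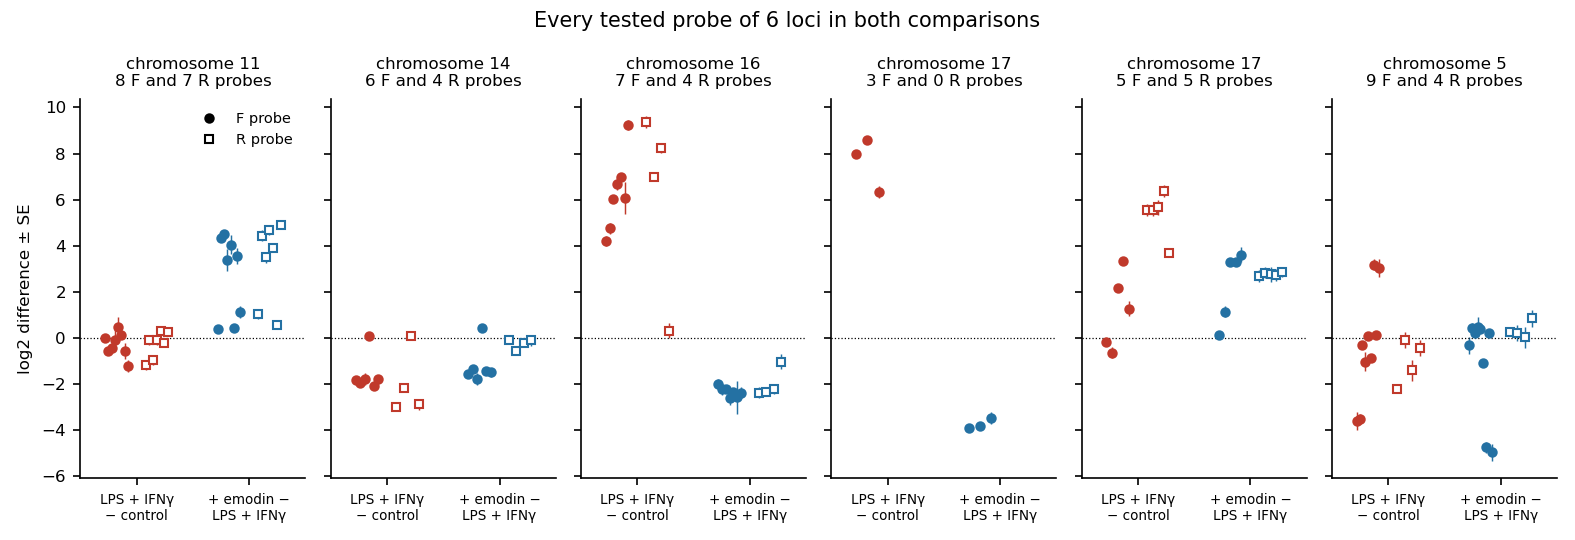
Log2 difference and SE of every tested probe of 6 loci, with LPS plus IFNγ minus control in red and emodin minus LPS plus IFNγ in blue, filled circles for F and open squares for R probes. The chromosome 16 locus and the narrower chromosome 17 locus rise and then fall. The chromosome 11 locus rises only where emodin is added to LPS plus IFNγ, and the wider chromosome 17 locus rises at both steps. The chromosome 5 locus holds probes that go either way.

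Other regions were called the same way at both steps. The R probe of chr11:59206727-59207172 read -4.32, -5.16, -4.47 and -4.53 in the control, -2.31, -2.21, -2.03 and -1.81 with LPS plus IFNγ, and 0.32, 0.19, 0.71 and -0.13 with emodin. It rose by 2.53 ± 0.21 and then by 2.36 ± 0.21 (adjusted p = 5.49e-07 and 1.15e-06), and its other probes, on 1 and on no control array well above background, rose by 2.72 and 2.64 at the second step. The F probe of chr15:90156889-90184564 was well above background on no control array, 3 LPS plus IFNγ arrays and 4 emodin arrays, and was at least 10.3-fold higher with emodin than in the control. The other tested probe of its interval differed by 0.43 and then by -0.76.

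In the interval chr14:22267795-22319045, chosen after its values were seen, F probes fell at both steps. Of 6 tested F probes 5 fell with LPS plus IFNγ, and the same count fell again with emodin. Of 4 tested R probes 3 fell with LPS plus IFNγ, at least 1.77-fold to 2.15-fold, and were then well above background on no treated array, so a further fall with emodin could not be measured. An F probe read 2.28, 2.37, 2.17 and 1.90 in the control, 0.20, 0.05, -0.12 and 0.15 with LPS plus IFNγ, and -1.30, -1.70, -1.27 and -1.25 with emodin, in 3 steps without overlap.

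Emodin with LPS plus IFNγ, set against the vehicle control, raised 1953 tested members and lowered 1194. Over all tested probes 74.1% were called, 42.1% higher and 32.1% lower, against 39.0% and 23.8% of members. The medians were 0.13 for members and 0.12 for all tested probes. At 2-fold or more 987 were higher and 509 lower (19.7% and 10.2% of tested members, against 19.4% and 16.5% of all tested probes). The arrays did not overlap for 1766 higher and 1107 lower members, together 57.4% of tested members. Over all tested probes that share was 69.0%, with 39.1% higher and 29.9% lower. With the 75th percentile taken over the probes detected on all arrays the counts were 1535 higher and 1650 lower, so that 48.2% of called members were higher against 62.1% in the main setting. Without replicate 3 of the treated groups they were 1835 and 1208. This comparison shares its arrays with both others.

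The largest falls from control to emodin happened at both steps or at the first. In chr12:16447157-16447657 the F probe read -0.88, -1.03, -0.95 and -1.22 in the control, -2.46, -1.98, -2.81 and -2.64 with LPS plus IFNγ, and -4.97, -5.26, -5.05 and -5.09 with emodin, where no array was well above background. It was at least 9.32-fold lower than in the control (difference -4.07 ± 0.16, adjusted p = 5.08e-10). In chr16:29907604-29946602 the R probe read 0.09, 0.05, -0.08 and -0.17, then -1.75, -1.82, -1.66 and -1.43, and with emodin -3.72, -4.03, -4.29 and -4.30. Its groups did not overlap, and the difference from the control was -4.06 ± 0.13 (adjusted p = 1.8e-10), with 2 emodin arrays well above background, and one of its other probes was at least 12.2-fold lower. All mesothelial and fibroblast markers called in this comparison, 10 of 11, were lower with emodin, as were 4 of 5 tested lymphocyte markers, with the fifth higher (median -1.44). Their part was not tested.

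Probes of one interval and strand often differed among themselves. There were 1226 interval and strand pairs with at least 2 tested probes, 3701 probes in all. With LPS plus IFNγ every tested probe was called higher in 11.5% of them, every one lower in 18.4%, probes were called in both directions in 10.9%, and none was called in 14.7%. With emodin against LPS plus IFNγ the shares were 28.3%, 8.73%, 7.01% and 14.3%. The median SD of log2 differences within a pair was 0.34 and 0.27 in these comparisons.

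Strands of an interval were compared the same way, in 463 intervals tested on both. With LPS plus IFNγ 197 intervals were called on both strands with a single direction on each, 28 of them higher, 87 lower and 82 in opposite directions. With emodin against LPS plus IFNγ the counts were 227, 153, 27 and 47. Intervals within 100000 bases of each other formed 650 pairs of loci. In 86 pairs both loci were called one way with LPS plus IFNγ, 55 in the same and 31 in opposite directions. With emodin the counts were 102, 78 and 24.

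In the intervals whose weaker strand was brightest, the 8 probes named changed little. These intervals were chr12:73838608-73862621, chr17:39960567-39992817, chr5:34696192-34722842 and chr12:119825125-119850750. In chr17:39960567-39992817 the F probe read 5.48, 5.44, 5.65 and 5.66 in the control, 5.84, 5.82, 5.85 and 5.91 with LPS plus IFNγ, and 6.43, 6.38, 6.35 and 6.25 with emodin. The rises of 0.30 ± 0.07 and 0.50 ± 0.07 were called (adjusted p = 0.00369 and 8.36e-05), but the latter became -0.19 with the spike-in scaling. All 8 other tested probes of chr17:39960567-39992817 were called higher at both steps, and differed by 0.61 to 1.32 between emodin and control. Every difference among the 8 probes named for these intervals was under 1 in size, and 78 of the 123 calls lost under an alternative, over all probes with values given here, belonged to these 4 intervals.

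Named long noncoding RNAs give a comparison on the same arrays. In the same probe series 5 probes of NEAT1, the scaffold of nuclear paraspeckles, fell with LPS plus IFNγ by differences of -1.23 to -1.01 and rose with emodin by 1.20 to 1.28. The 3 probes of NEAT2, a nuclear speckle RNA also called MALAT1, rose by 0.30 to 0.44 and then by 0.82 to 1.10, of which 13 values under alternatives were no longer called. No tested XIST probe was called, although the differences between LPS plus IFNγ and control ran from -1.90 to -0.60. Of 5 XIST probes 5 were detected in the control, 1 with LPS plus IFNγ and 0 with emodin. Replicate 3 of both treated groups had Xist not well above background, as given above, and its part was not tested.

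Of 67 long noncoding RNAs listed by RefSeq name 36 had a probe and 28 were tested, with 11 higher and 11 lower with LPS plus IFNγ and 13 higher and 8 lower with emodin than without it. Morrbid, which controls survival of myeloid cells, read -4.72, -4.67, -5.83 and -4.62 in the control, 0.30, 0.38, 0.40 and 0.22 with LPS plus IFNγ, and -2.26, -2.71, -3.14 and -2.31 with emodin. No control array showed it well above background, so it rose by at least 31.3-fold (adjusted p = 7.42e-09), and emodin arrays lay between the other groups. Pvt1, a neighbour of Myc, differed by -1.23 with LPS plus IFNγ and by 3.95 with emodin. Snhg15, a host of small nucleolar RNAs, differed by 0.09 and then by 2.74, and Mirt2 by 2.78 and then by -2.33. Meg3, well above background on 3 control arrays, 4 LPS plus IFNγ arrays and no emodin array, was at least 8.00-fold lower with emodin than without it. Mirt1, with 2 LPS plus IFNγ arrays well above background, differed by -1.46 and then by 2.86.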

How the data were processed

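RNA of 12 peritoneal macrophage samples was hybridised to one-colour (Cy3) Agilent mouse arrays, per the labels' protocols. Spot intensities in the deposited scanner files came from Agilent Feature Extraction (version 10.7.3.1), per the submitters' processing notes and the file headers. The processed signal is a background-subtracted intensity, not normalised between arrays, and the flags for background, saturation and outliers are deposited with it. The deposited value table holds log2 values of an unstated normalisation, centred per probe, with column medians of -0.0316 to 0.0416. Of its 12 columns 9 matched their own scanner file best, and it served only as an alternative.

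Here outlier-flagged spots (78 to 415 per array) were left out, replicate spots were averaged by probe, and the 75th percentile of each array was subtracted from log2 signal. At most 7 spots per array were saturated. Probes well above background on all 4 arrays of 1 or more groups (27355) entered a linear model in limma (version 3.58.1; R version 4.3.3) with all 12 arrays, 3 group means, 9 residual and 2.55 prior degrees of freedom, two-sided, with Benjamini-Hochberg adjustment. An array left out for an outlier flag touched 39, 39 and 10 tested members in the 3 comparisons. The number of arrays limits the precision. The background alternative (normexp, offset 50) used median spot signals. On simulated data with 200 changed probes of 27355, 77.9%, 80.2% and 77.0% of 2-fold changes were recovered in LPS plus IFNγ against control, emodin against LPS plus IFNγ and emodin against control, and 5.20%, 5.10% and 3.94% of calls were false. In the data 65.7% to 74.1% of tested probes were called, far more than were changed there. Members were not scored apart, so these rates need not hold for them.

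Regions were named by rule: the 6 largest non-overlapping rises and falls in each of the first 2 comparisons, 3 and 3 in the third, 4 each with opposite and same direction in the first 2, 4 bright on both strands, and 6 named noncoding RNAs; the brightest called probe spoke for an interval. Members, lists and rules were chosen with earlier results of these data known. Replicate numbers may pair the treated groups, as deviations of same-numbered arrays correlated weakly, at 0.18, 0.22, 0.23 and 0.13. No such match was seen with the control. The labels state no pairing, and the main model used no block. Gene symbols came from a RefSeq table of another build (GRCm38.p6) used only for names, so genes within or next to the regions, and sequences, were not analysed here.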

Additional observations from a re-analysis of the deposited data

Results flagged for a closer look

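Among the 38 named probes 114 groups of 4 arrays were checked for an array far from the rest, and 11 arrays of 10 probes stood out; chance alone marks about 5% of groups. The largest gaps were in the control. Replicate 1 read -1.75 for chr13:52068582-52071952 F, where the others read -7.06 to -6.75, and replicate 2 read -2.84 for chr16:84707202-84707748 F against -6.73 to -6.52. Replicate 3 read -1.84 for chr3:30754871-30776438 F, where the others were between -2.60 and -2.49.

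LPS plus IFNγ replicate 1 stood apart for 3 probes. It read -1.16 for chr5:53931541-53945241 R against -3.21 to -3.07, 6.58 for chr5:34696192-34722842 F against 5.98 to 6.07, and -5.24 for chr13:52068582-52071952 F against -6.42 to -6.23, where none of the 4 arrays was well above background.

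Emodin replicate 1 read -3.36 for chr5:31883451-31884082 F against -4.16 to -4.07, -3.97 for chr5:123582742-123588202 F against -3.22 to -3.11, and 8.92 for chr12:73838608-73862621 R against 8.61 to 8.66. Emodin replicate 3 read -3.00 for chr11:112898724-113062945 R against -3.39 to -3.35, and 1.08 for chr9:55925993-55926583 R against 0.99 to 1.00. Causes were not tested.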

How the results depend on the processing

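Counts of called lincRNA probes are given as higher and lower. With no filter on dim probes 5581 were higher with LPS plus IFNγ and 6454 with emodin than in the control; all 16194 were then tested, and slides differ at background. Restricting to probes detected on all 12 arrays left 503 lower with emodin than LPS plus IFNγ, with 3220 tested. Averaging the probes of an interval and strand, which left 2533 values, gave 560 and 965 with LPS plus IFNγ, 1234 and 345 with emodin against LPS plus IFNγ, and 990 and 545 with emodin against control. Requiring 2-fold gave 528 and 618, 832 and 314, and 987 and 509. Spike-in scaling gave 600 and 2210 for emodin against LPS plus IFNγ. Detection on at least 1 array gave 6091 members with LPS plus IFNγ. The other 140 settings of these counts stayed within 1.5 times.

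Leaving out single arrays gave 1012 to 1099 higher and 1795 to 2002 lower with LPS plus IFNγ, 2194 to 2380 and 720 to 765 with emodin against LPS plus IFNγ, and 1831 to 1983 and 1099 to 1227 with emodin against control. With the replicate number as a block the counts were 1078 and 1964, 2357 and 757, and 1944 and 1192. With only the 8 treated arrays they were 2382 and 750, so this block moved no count by over 1.5 times.

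Signs turned mostly in the 4 intervals bright on both strands. For emodin against LPS plus IFNγ, spike-in scaling gave -0.13 (F) and -0.42 (R) for chr12:73838608-73862621, -0.19 and -0.40 for chr17:39960567-39992817, -0.31 and -0.25 for chr5:34696192-34722842, and -0.38 for chr12:119825125-119850750 R; quantile normalisation and the value table both gave -0.18 for chr12:73838608-73862621 R. Against control, quantile normalisation and the value table gave -0.58 and -0.59 for chr12:73838608-73862621 F, -0.29 and -0.30 for its R probe, -0.49 and -0.50 for chr5:34696192-34722842 F, and -0.29 and -0.31 for chr12:119825125-119850750 F. Signs also turned where groups compared were mostly below background: spike-in scaling gave -0.11 for chr1:139795171-139796306 F and normexp 0.35 for chr5:31856417-31916317 F, both emodin against LPS plus IFNγ. For chr13:52068582-52071952 F, LPS plus IFNγ against control, leaving out single arrays gave -0.88 to 0.89, the latter without control replicate 1. Over the 165 differences of the 55 probes given, 3604 values under alternatives kept direction and side of the threshold, 123 lost their call (78 of them in the 4 bright intervals) and 25 gained one. The normexp correction moved the differences by 0.81 on average and by up to 3.25. The causes were not tested.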
